A study of Mus musculus with 9 samples.

Results

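Keratin-associated proteins are the small matrix proteins of the hair shaft. The set described here holds every keratin-associated protein gene of the deposited count table that does not lie on chromosome 16: symbols that begin with Krtap and a number, pseudogenes left out. That gave 33 genes of the 54456 in the table, in 13 numbered subfamilies, of which 23 lie on chromosome 11, 5 on chromosome 7, 3 on chromosome 10 and 2 on chromosome 1. Another 25 keratin-associated protein genes lie on chromosome 16 and serve as a comparison. Of the 33 genes, 31 had enough counts to be tested, and all 31 had at least 10 counts in each library of each group. The other two, Krtap10-10 and Krtap12-1, had 0 counts in all 9 libraries.

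Polyadenylated RNA came from mouse skin with AA-like lesions, as the labels name them; the study concerns alopecia driven by the immune system. The 3 groups were lesions left untreated, lesions treated with empty microneedles (empty needles) and lesions treated with microneedles carrying IL-2 and CCL22 (loaded needles), with 3 libraries each. IL-2 is a growth factor of T cells and CCL22 a chemokine for cells that bear CCR4. The sources used here do not give strain, sex, age, body site, time of sampling or how the lesions arose. Nor do they say whether replicate libraries stand for different mice: each p-value therefore reflects the spread between libraries only, which may be technical.

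The libraries held 85962714 to 96740589 counts each. Levels are given as CPM, the count scaled for library size with TMM factors, and comparisons between genes as CPM per kilobase of gene length. All 7 cortex and cuticle markers and all 7 inner root sheath markers on the lists had counts. So had the markers of every other cell type listed, so the presence of counts is no check of the labelled tissue. A gene was called at an edgeR adjusted p under 0.05, adjusted over all 26081 genes tested. By that rule 42.3% of all tested genes were called between loaded needles and untreated skin, 41.4% between loaded and empty needles and 48.3% between empty needles and untreated skin.

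As background, cells of the hair cortex and cuticle make keratin-associated proteins late in their differentiation, during the growth phase of the follicle. The proteins fill the space between the hair keratin filaments and link them through disulphide bonds. Krtap1, Krtap2 and Krtap3 proteins belong to the high-sulphur type. Krtap4, Krtap5, Krtap9 and Krtap17 proteins belong to the ultra-high-sulphur type, which holds still more cysteine, and Krtap5 proteins are known from the hair cuticle. The glycine- and tyrosine-rich type is encoded mainly on chromosome 16.

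As a set, these genes were lowest under empty needles and highest under loaded needles. Their summed level was 2715, 2638 and 2613 CPM in the untreated libraries, 2042, 2205 and 1907 CPM under empty needles and 3100, 3191 and 3006 CPM under loaded needles. The groups did not overlap. Of the 31 tested genes, 30 were called in the test over the 3 groups, against 59.2% of all tested genes; the exception was Krtap4-13. The set took 0.250% to 0.252% of all counts in untreated skin, 0.196% to 0.223% under empty needles and 0.311% to 0.331% under loaded needles. In whole skin, fewer hair-forming cells and less RNA per cell cannot be told apart.

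Between loaded and empty needles, 28 of the 31 tested genes were higher, 0 were lower and 3 did not pass, against 22.9% of all tested genes called higher and 18.5% called lower. The median log2 fold change was 0.64, beside 0.02 over all tested genes. All 31 log2 fold changes were above 0 (the smallest 0.019), so the count of lower genes is 0 at any threshold on p. It was also 0 by the DESeq2 Wald test. Between empty needles and untreated skin, 23 of 31 were lower, 3 higher and 5 did not pass, where 28.1% of all genes were called lower and 20.2% higher, and the median was -0.36. Between loaded needles and untreated skin, 20 of 31 were higher, 4 lower and 7 did not pass, where 19% of all genes were called higher and 23.3% lower, and the median was 0.22. The libraries of the 2 groups did not overlap in 28 of 31 genes between the 2 needle groups (50.8% of all tested genes), in 25 for empty needles against untreated skin (54.6%) and in 25 for loaded needles against untreated skin (52.7%). Each pair of these comparisons shares 1 group of libraries.

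In the order of their group means, 20 genes ran from empty needles through untreated skin to loaded needles. In 7 genes untreated skin was highest and empty needles lowest. These were the 5 Krtap5 genes, Krtap28-13 and Krtap29-1. In the remaining 4, Krtap4-6, Krtap4-8, Krtap4-9 and Krtap4-13, untreated skin was lowest. These orders rest on group means, and not every step in them passed. Between loaded needles and untreated skin 7 genes did not pass, among them Krtap28-13 (log2 fold change -0.04), Krtap29-1 (-0.07) and Krtap31-2 (0.05). Krtap4-13 passed in no comparison.

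**Figure D1:**
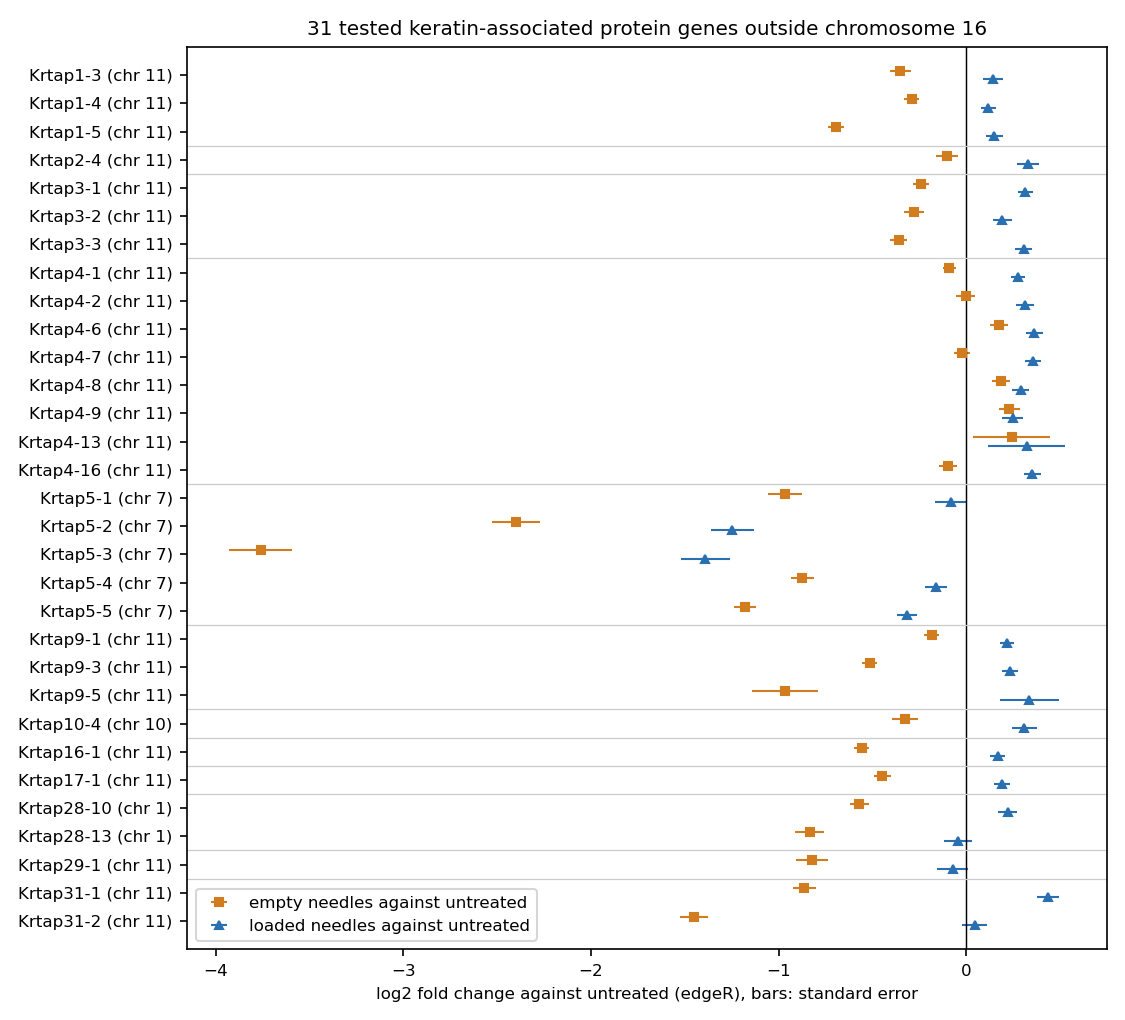
Log2 fold change of each of the 31 tested genes for empty needles (squares) and loaded needles (triangles) against untreated skin, with the standard error as bars; grey lines part the subfamilies. Most genes lie left of 0 under empty needles and right of 0 under loaded needles, Krtap5-3 and Krtap5-2 lie furthest left, and the Krtap4 genes lie near or right of 0 with both.

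Krtap3 and Krtap1, high-sulphur proteins of the cortex, made up most of the summed level, at 39.7% and 24.1% of it. Krtap3-1, at chromosome 11 from 99456853 to 99457456 (mm39), had the highest level per kilobase of the set, 699 CPM per kilobase over all libraries. It stood at 412, 407 and 411 CPM in the untreated libraries, 345, 369 and 327 CPM under empty needles and 506, 539 and 486 CPM under loaded needles. The 3 groups were apart, with untreated skin in the middle. Under loaded needles it was 1.47-fold above empty needles (log2 fold change 0.56, SE 0.041, edgeR adjusted p = 2.47e-11) and 1.245-fold above untreated skin (0.32, SE 0.041, edgeR adjusted p = 5.53e-07). Krtap3-3 stood at 310, 319 and 301 CPM untreated, 239, 262 and 223 CPM under empty needles and 385, 395 and 370 CPM under loaded needles, again with no overlap, and Krtap3-2 followed the same order.

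Krtap1-5 had the largest level in CPM of the set but ranked below Krtap3-1 per kilobase. Its values were 515, 489 and 488 CPM untreated, 308, 331 and 283 CPM under empty needles and 554, 567 and 535 CPM under loaded needles. It fell 1.62-fold under empty needles (log2 fold change -0.69, SE 0.044, edgeR adjusted p = 1.35e-11), while its gain under loaded needles over untreated skin was 1.11-fold (0.15, SE 0.044, edgeR adjusted p = 0.00763). Krtap1-4 stood at 92.0, 90.9 and 88.4 CPM untreated, 73.3, 79.4 and 69.3 CPM under empty needles and 101, 99.0 and 94.6 CPM under loaded needles. Its call against untreated skin, at a log2 fold change of 0.12, was lost without untreated library 3 or loaded-needle library 1 or 2 (log2 fold changes of 0.10, 0.0985 and 0.11), whereas its gain over empty needles was called throughout. Krtap1-3 changed by 0.14 on the log2 scale against untreated skin and did not pass (edgeR adjusted p = 0.057), though it was called under most alternatives, the DESeq2 Wald test among them (adjusted p = 0.0123).

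Krtap2-4, the only Krtap2 gene in the table, was called in both comparisons of loaded needles and not in the third. It stood at 58.6, 56.4 and 51.6 CPM in the untreated libraries, 50.2, 56.4 and 48.9 CPM under empty needles and 68.5, 73.3 and 67.6 CPM under loaded needles. The untreated and empty-needle values overlapped, and the loaded-needle values lay above both. The log2 fold change was 0.43 against empty needles and 0.33 against untreated skin, and -0.10 between empty needles and untreated skin (SE 0.058, edgeR adjusted p = 0.188). That last difference was called without untreated library 3 or empty-needle library 2 (log2 fold changes of -0.15 and -0.17).

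The 8 Krtap4 genes, of the ultra-high-sulphur type, for the most part did not fall under empty needles. Their summed level was 292, 302 and 293 CPM untreated, 306, 325 and 284 CPM under empty needles and 370, 373 and 357 CPM under loaded needles, so the first 2 groups overlapped. Of the 8, 3 were higher under empty needles than in untreated skin, 1 was lower and 4 did not pass. Of all tested genes, 20.2% were called higher and 28.1% lower in that comparison, 48.3% in all. Against untreated skin 7 of 8 were higher under loaded needles (19% of all tested genes), at a median log2 fold change of 0.32. Against empty needles 5 of 8 were higher (22.9% of all tested genes), at a median of 0.25, and the other 3 did not pass.

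Krtap4-1, which had the highest level per kilobase among them, stood at 73.0, 72.8 and 70.0 CPM untreated, 68.1, 70.5 and 64.2 CPM under empty needles and 87.9, 89.1 and 84.3 CPM under loaded needles. Its rise under loaded needles was 1.21-fold over untreated skin and 1.29-fold over empty needles. Its small fall under empty needles (log2 fold change -0.09, SE 0.036, edgeR adjusted p = 0.0389) was lost under most alternatives and reversed with library-size scaling (0.01). Krtap4-16 stood at 19.3, 20.2 and 18.8 CPM untreated, 18.5, 18.9 and 17.1 CPM under empty needles and 24.7, 25.1 and 24.7 CPM under loaded needles, a similar shape.

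Krtap4-8 had a different order. It stood at 54.1, 57.8 and 59.0 CPM in the untreated libraries, 65.7, 69.5 and 59.3 CPM under empty needles and 69.8, 70.4 and 69.1 CPM under loaded needles. Both needle groups lay above untreated skin (log2 fold changes 0.19 under empty needles, SE 0.046, edgeR adjusted p = 0.00226, and 0.29 under loaded needles, SE 0.046, edgeR adjusted p = 3.19e-05), and the 2 needle groups overlapped each other. The difference between the 2 needle groups was 0.11 (edgeR adjusted p = 0.0699) and was called without untreated library 1 or empty-needle library 2 and with library-size scaling (0.11, 0.16 and 0.14). Krtap4-6 and Krtap4-9, named after their values were seen, rose under empty needles by 0.17 and 0.23 on the log2 scale and under loaded needles by 0.36 and 0.25. The Krtap4-6 difference between the 2 needle groups, 0.19, was lost without empty-needle library 3 (0.11).

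The 4 genes of chromosome 11 with the smallest difference between the 2 needle groups, Krtap4-6, Krtap4-8, Krtap4-9 and Krtap4-13, follow one another among the set's genes along the chromosome, and so do the 3 with the largest, Krtap31-1, Krtap31-2 and Krtap9-5. These 7 were picked out after their values were seen, and the run along the chromosome was not tested.

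**Figure D2:**
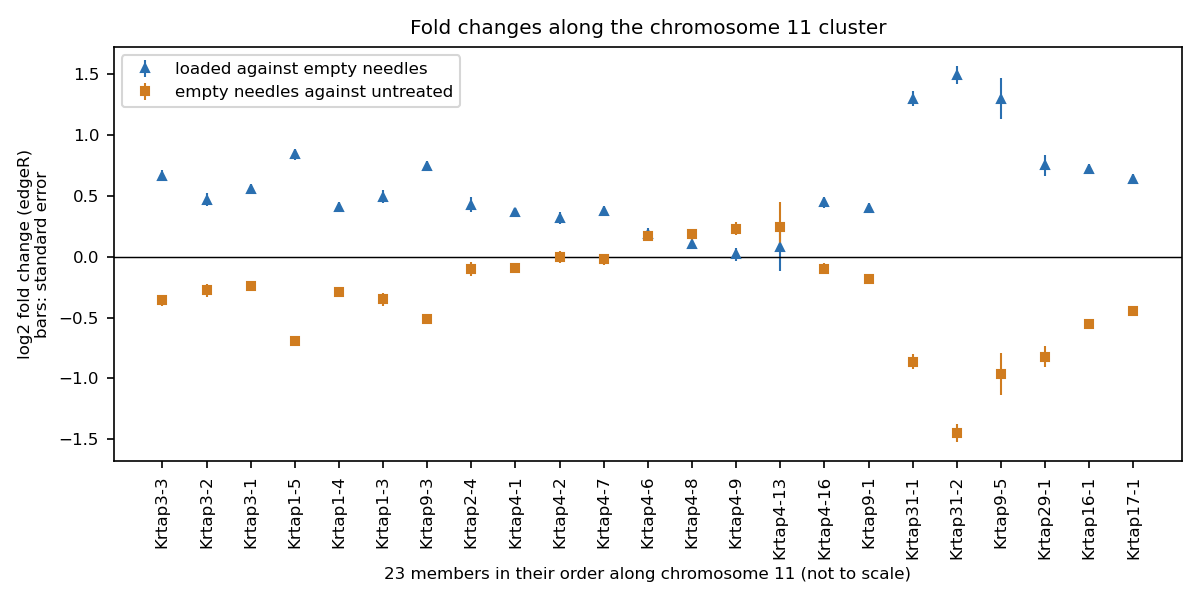
Log2 fold change (vertical axis, bars show the standard error) of the 23 genes of chromosome 11 in their order along the chromosome, for loaded against empty needles (triangles) and empty needles against untreated skin (squares). The difference between the 2 needle groups is under 0.20 from Krtap4-6 to Krtap4-13 and at least 1.30 from Krtap31-1 to Krtap9-5.

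The sequences just before the transcription start are shown for all 7 genes of these 2 neighbourhoods, to show which of them are close copies there and which is not. They are RefSeq windows of 60 bases that end at the base before the annotated start, in GRCm38.p6, 5′ to 3′ on the gene's strand, with TATAAA in capitals; 28 of the 33 genes had an entry. Krtap31-1 lies at chr11:99907860-99907919 on the plus strand, Krtap31-2 at chr11:99936231-99936290 on the plus strand and Krtap9-5 at chr11:99948364-99948423 on the plus strand. Krtap4-6 lies at chr11:99665961-99666020 on the minus strand, Krtap4-8 at chr11:99780644-99780703 on the minus strand, Krtap4-9 at chr11:99785140-99785199 on the plus strand and Krtap4-13 at chr11:99809897-99809956 on the minus strand.
Krtap31-1: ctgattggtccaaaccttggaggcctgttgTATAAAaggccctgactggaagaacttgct
Krtap31-2: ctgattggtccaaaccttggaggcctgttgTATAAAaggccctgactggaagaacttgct
Krtap9-5: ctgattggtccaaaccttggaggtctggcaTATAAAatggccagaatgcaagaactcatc
Krtap4-6: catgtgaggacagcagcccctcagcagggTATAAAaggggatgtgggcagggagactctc
Krtap4-8: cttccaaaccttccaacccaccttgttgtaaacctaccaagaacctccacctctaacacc
Krtap4-9: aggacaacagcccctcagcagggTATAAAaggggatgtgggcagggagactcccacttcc
Krtap4-13: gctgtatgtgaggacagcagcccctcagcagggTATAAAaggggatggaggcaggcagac
The Krtap31-1 and Krtap31-2 windows were the same in all 60 bases, and Krtap9-5 matched Krtap31-1 at 47 of 60 positions, with a shared run of 23 bases. Krtap4-6 shared a run of 45 bases with Krtap4-9 and of 42 bases with Krtap4-13, and the last 2 shared 30 bases with each other. Krtap4-8 was not such a copy: its longest shared run was 4 bases with Krtap4-6, 5 with Krtap4-9 and 4 with Krtap4-13, and its nearest TATAAA on the gene's strand began 92 bases before the start, outside the window shown. Over all 378 pairs of windows the median longest shared run was 8 bases.

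In the 250 bases before the start, TATAAA on either strand was found in 25 of the 28 promoters (89.3%), against 12.4% of the 32851 promoters in the RefSeq table. On the gene's own strand and with its first base 40 to 20 bases before the start, it was found in 21 of 28 (75%), against 1.99% of all. TTTAT, the core of sites bound by posterior Hox proteins, was found on either strand in 27 of 28 (96.4%), against 37.3% of all, but the reverse complement of TATAAA holds TTTAT, so every TATAAA is counted there too. The LEF1 and TCF core sequences CTTTGA and CTTTGT, searched on both strands, were each found in 4 of 28 (14.3%), against 13.8% and 16.5% of all. These matches describe letters in a window and depend on the annotated start.

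With the low-level Krtap9-5, Krtap31-1 and Krtap31-2 differed most between the 2 needle groups on chromosome 11. Krtap31-1 stood at 23.7, 23.4 and 21.5 CPM in the untreated libraries, 11.7, 14.2 and 11.8 CPM under empty needles and 31.3, 31.9 and 29.8 CPM under loaded needles. It was 2.46-fold higher under loaded than under empty needles (log2 fold change 1.30, SE 0.061, edgeR adjusted p = 6.29e-13) and 1.35-fold above untreated skin (0.44, SE 0.058, edgeR adjusted p = 3.52e-06). Krtap31-2 stood at 21.1, 17.8 and 18.1 CPM untreated, 6.78, 7.63 and 6.43 CPM under empty needles and 19.4, 21.0 and 18.5 CPM under loaded needles. It was 2.82-fold higher under loaded than under empty needles (log2 fold change 1.497, SE 0.073, edgeR adjusted p = 2.5e-12), but the loaded and untreated values overlapped (0.05, SE 0.067, edgeR adjusted p = 0.642). The transcripts of these 2 genes share about 40% of their sequence windows, as given further on, so the split of reads between them is uncertain.

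Krtap9 genes, of the ultra-high-sulphur type, were higher under loaded than under empty needles in 3 of 3 cases (22.9% of all tested genes). Krtap9-3 stood at 188, 176 and 178 CPM untreated, 127, 135 and 116 CPM under empty needles and 212, 215 and 209 CPM under loaded needles, with no overlap between groups. Its log2 fold change was 0.75 between the 2 needle groups and -0.52 under empty needles against untreated skin. Krtap9-1 stood at 59.4, 54.9 and 55.6 CPM, 49.7, 52.6 and 47.1 CPM and 64.6, 67.1 and 65.6 CPM in the same order, a smaller spread between groups (0.40 between the 2 needle groups). Its fall under empty needles (-0.18) was not called with library-size scaling (-0.08). Krtap9-5 had low levels, 0.684 ± 0.1501 CPM under empty needles and 1.69 ± 0.279 CPM under loaded needles (SD, n = 3).

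Of the subfamilies with 1 gene on chromosome 11, Krtap16 and Krtap17 kept to the common order and Krtap29 did not. Krtap16-1 stood at 117, 115 and 121 CPM in the untreated libraries, 79.6, 85.2 and 75.5 CPM under empty needles and 138, 133 and 126 CPM under loaded needles. Its log2 fold change was 0.72 between the 2 needle groups (SE 0.040, edgeR adjusted p = 2.04e-13) and 0.17 under loaded needles against untreated skin (SE 0.039, edgeR adjusted p = 0.0011). Krtap17-1, of the ultra-high-sulphur type, stood at 87.1, 84.8 and 78.8 CPM, 57.9, 65.6 and 60.4 CPM and 96.6, 97.9 and 91.9 CPM in the same order, with changes of 0.64 and 0.19. Krtap29-1 stood at 9.48, 8.04 and 9.13 CPM untreated, 4.77, 5.75 and 4.54 CPM under empty needles and 8.97, 8.74 and 7.68 CPM under loaded needles. It fell under empty needles (log2 fold change -0.82) and was 1.68-fold higher under loaded than under empty needles, while the loaded and untreated values overlapped (-0.07, edgeR adjusted p = 0.544).

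The 5 Krtap5 genes of chromosome 7, which encode ultra-high-sulphur proteins of the cuticle, all fell under empty needles, and most stayed below untreated skin under loaded needles. Krtap5-3 and Krtap5-2 had the 2 largest falls of the set under empty needles, while Krtap31-2 (log2 fold change -1.45) fell more than the other 3 Krtap5 genes. Their summed level was 58.2, 52.1 and 52.5 CPM untreated, 22.6, 25.6 and 22.1 CPM under empty needles and 42.2, 44.9 and 40.8 CPM under loaded needles, with no overlap between any 2 groups. The median log2 fold change of the 5 Krtap5 genes under empty needles was -1.18, and 28.1% of all tested genes were called lower there. Against untreated skin 4 of 5 fell under loaded needles (23.3% of all tested genes), at a median of -0.32. These 4 are all the genes of the set that were lower in that comparison. The call of 1 of them, Krtap5-4, was lost under several alternatives, as given below. All 5 were higher under loaded than under empty needles (22.9% of all tested genes), at a median of 0.88.

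Krtap5-3, at chromosome 7 from 141755101 to 141756752 (mm39), had the largest change of the set. Its raw counts were 355, 350 and 305 untreated, 16, 39 and 29 under empty needles and 129, 138 and 150 under loaded needles. The 3 groups were far apart. It fell 13.5-fold under empty needles (log2 fold change -3.76, SE 0.17, edgeR adjusted p = 2.24e-16), and was 5.17-fold higher under loaded than under empty needles (2.37, SE 0.19, edgeR adjusted p = 2.65e-11). Under loaded needles it stood below untreated skin by a log2 fold change of -1.39 (SE 0.13, edgeR adjusted p = 1.01e-09). Its neighbour Krtap5-2 had 389, 328 and 329 raw counts untreated, 63, 82 and 79 under empty needles and 171, 152 and 154 under loaded needles. It fell 5.27-fold under empty needles and had a log2 fold change of -1.25 under loaded needles against untreated skin.

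Krtap5-5 and Krtap5-4 held most of the subfamily's counts and changed less. Krtap5-5 stood at 26.8, 24.0 and 23.8 CPM in the untreated libraries, 10.7, 11.6 and 10.5 CPM under empty needles and 19.9, 21.3 and 18.6 CPM under loaded needles. Relative to untreated skin it changed on the log2 scale by -1.18 under empty and -0.32 under loaded needles. Krtap5-4 stood at 14.5, 13.7 and 13.97 CPM, 7.30, 8.45 and 7.23 CPM and 12.3, 13.2 and 12.2 CPM in the same order. Its fall under loaded needles (log2 fold change -0.16, edgeR adjusted p = 0.0271) was lost by the DESeq2 Wald test (adjusted p = 0.06), with library-size scaling (-0.03) and without untreated library 1 or 3 or loaded-needle library 1 or 3 (log2 fold changes of -0.17 to -0.14). The makeup of the subfamily shifted with the groups: Krtap5-3 gave 7.34 ± 0.599% of its counts in untreated skin, 1.23 ± 0.414% under empty needles and 3.57 ± 0.30% under loaded needles (SD, n = 3), and Krtap5-4 gave 25.9 ± 0.921%, 32.7 ± 0.380% and 29.5 ± 0.393%.

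**Figure D3:**
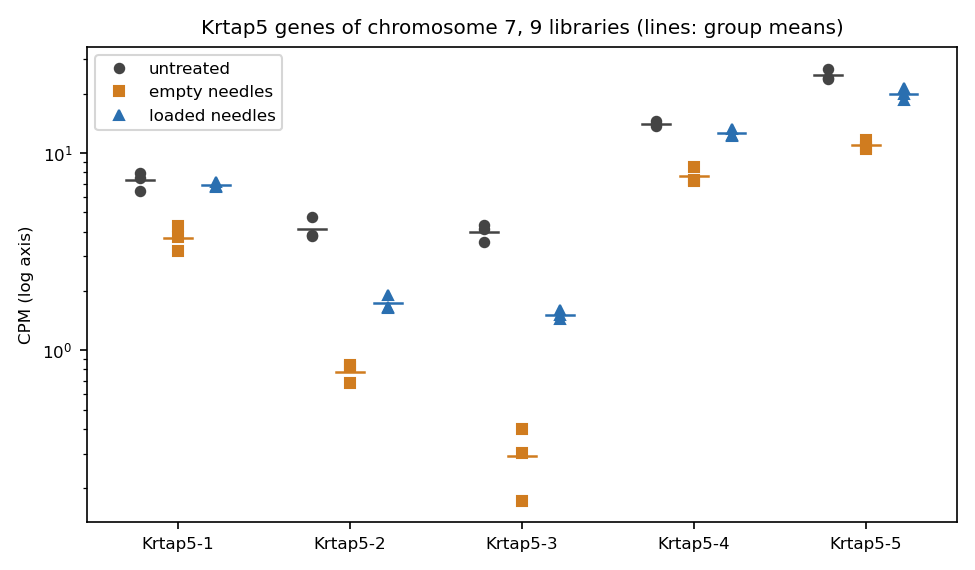
Level in CPM (log axis) of the 5 Krtap5 genes in each of the 9 libraries, with a line at each group mean. In all 5 genes the empty-needle libraries lie lowest, and Krtap5-2 and Krtap5-3 show the widest gaps between the groups.

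On chromosome 1, Krtap28-10 rose under loaded needles over both other groups. It stood at 26.0, 23.6 and 24.6 CPM in the untreated libraries, 16.5, 18.1 and 15.3 CPM under empty needles and 29.1, 29.4 and 27.9 CPM under loaded needles (log2 fold changes 0.79 against empty needles and 0.22 against untreated skin, edgeR adjusted p = 1.14e-12 and 0.000686). Krtap28-13 stood at 27.5, 21.9 and 23.02 CPM, 13.8, 14.4 and 12.4 CPM and 23.5, 23.6 and 23.05 CPM in the same order. Its loaded and untreated values overlapped, and the empty-needle values lay below both (log2 fold change -0.83 against untreated skin, SE 0.077, edgeR adjusted p = 6.17e-07).

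On chromosome 10 only Krtap10-4 had counts, at 9.86, 9.04 and 10.3 CPM untreated, 7.86, 8.41 and 6.98 CPM under empty needles and 12.8, 12.2 and 11.2 CPM under loaded needles. It followed the common order with no overlap (log2 fold changes 0.64 between the 2 needle groups, 0.31 and -0.33 against untreated skin). All 3 genes of that chromosome lie inside Tspear, Krtap10-4 on the opposite strand and Krtap10-10 and Krtap12-1 on the same strand. All 5737 genes of the table that lie inside another gene on the same strand, and inside none on the other, had 0 counts in all 9 libraries. Of the 5960 that lie inside a gene on the opposite strand only, 13.9% had 0 counts, and of the 30012 that overlap no gene 15.1%. The 0 of Krtap10-10 and Krtap12-1 is therefore shared by every gene so placed and gives no limit on their transcripts.

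The hair shaft keratins, with which these proteins assemble, had the same order in their summed level. Of the 15 hair keratin genes on the list, 14 were higher under loaded than under empty needles and 0 lower (22.9% and 18.5% of all tested genes). The median log2 fold change was 0.77. Under empty needles against untreated skin 15 of 15 fell (28.1% of all tested genes), at a median of -0.52. Krt83 and Krt86, the most abundant of them, changed by 0.93 and 0.75 between the 2 needle groups. Under loaded needles against untreated skin, 10 of the 15 were higher, 3 lower and 2 did not pass. The 3 lower were Krt32 (-0.31), Krt84 (-0.26) and Krt40 (-0.16). Of all tested genes, 19% were called higher and 23.3% lower in that comparison. For each 100 counts of these keratins, the set had 46.6, 45.6 and 45.4 untreated, 52.6, 52.1 and 51.8 under empty needles and 43.7, 44.8 and 44.8 under loaded needles. Relative to the hair keratins the set was thus highest under empty needles, the reverse of its order in CPM.

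The ratio to the hair keratins parted the subfamilies. For each 100 hair keratin counts, Krtap4 had 5.01, 5.23 and 5.10 untreated, 7.89, 7.67 and 7.71 under empty needles and 5.21, 5.22 and 5.32 under loaded needles. Krtap3 had 17.8, 17.7 and 17.5, then 21.5, 21.3 and 21.1, then 17.3, 18.1 and 17.9, also highest under empty needles. Krtap5 had 0.9998, 0.901 and 0.913 untreated, 0.583, 0.605 and 0.599 under empty needles and 0.595, 0.629 and 0.609 under loaded needles, so that it lay below untreated skin in both needle groups. Krtap28 and Krtap29 did so too, also without overlap with untreated skin. Their means were 0.844 and 0.153 untreated, 0.767 and 0.127 under empty needles and 0.748 and 0.121 under loaded needles. Krtap31 had 0.768, 0.714 and 0.689, then 0.476, 0.515 and 0.495, then 0.714, 0.741 and 0.720, low under empty needles alone. For Krtap16 the untreated and empty-needle ratios overlapped, at 1.99 to 2.10 and 2.01 to 2.05.

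**Figure D4:**
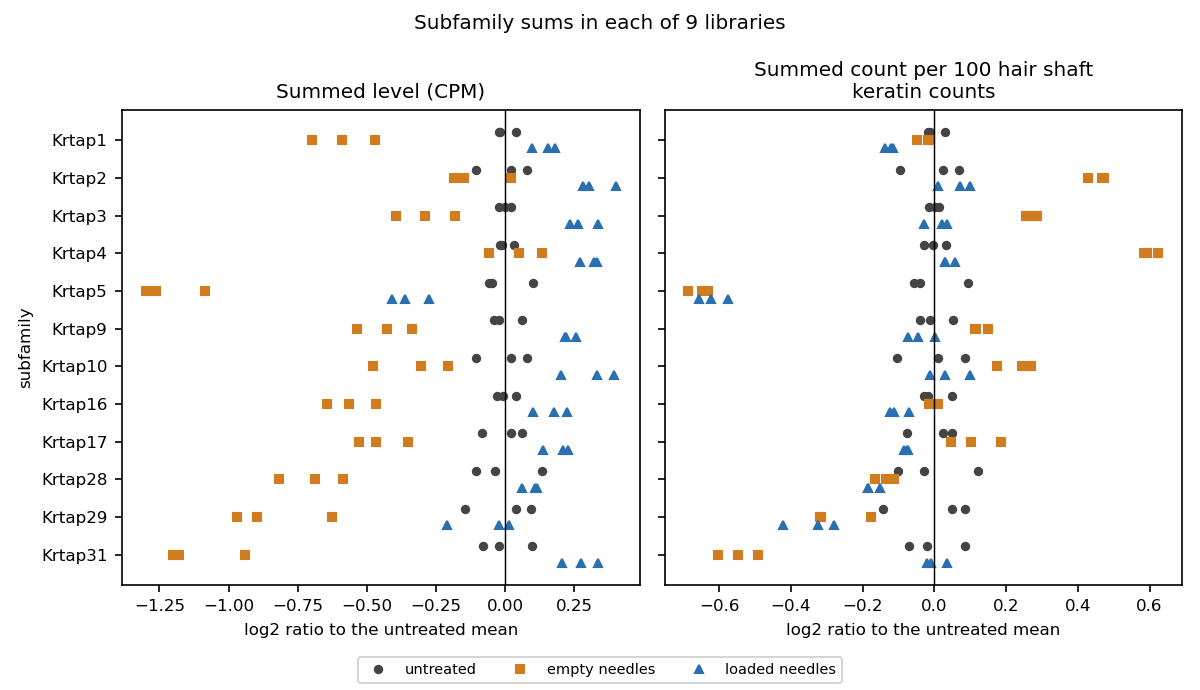
Summed level of each subfamily in each of the 9 libraries as a log2 ratio to its untreated mean, on the left in CPM and on the right per 100 hair shaft keratin counts. On the left the empty-needle squares lie lowest except for Krtap4 and, in part, Krtap2. On the right they lie highest for Krtap2, Krtap3, Krtap4, Krtap9 and Krtap10 and lowest or among the lowest for Krtap5 and Krtap31. For Krtap28 and Krtap29 both needle groups lie below untreated skin on the right.

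Of the 24 keratin-associated protein genes tested on chromosome 16, 24 fell under empty needles and 0 rose, at log2 fold changes of -1.38 to -0.36, whereas the set outside chromosome 16 ran from -3.76 to 0.24. Between the 2 needle groups 24 of 24 were higher, at a median of 0.86 beside 0.64. Under loaded needles against untreated skin, 13 of the 24 were higher, 3 lower and 8 did not pass. The difference between the 2 sets was not tested.

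Factors that act in the hair matrix, cortex or cuticle were read from a list of 17. Between the 2 needle groups 12 were higher, 2 lower and 3 did not pass (22.9% of all tested genes were called higher, 18.5% lower). Under empty needles against untreated skin 10 fell, 5 rose and 2 did not pass (28.1% of all called lower, 20.2% higher). Under loaded needles against untreated skin, 12 were higher, 2 lower and 3 did not pass (19% of all called higher, 23.3% lower). Ctnnb1, which encodes the Wnt mediator beta-catenin, changed by 0.32 between the 2 needle groups, and Gata3, an inner root sheath factor, by -0.0031. Hoxc13, a factor known to drive hair keratin and keratin-associated protein genes, and Foxn1, which acts in the matrix and cortex, were named after their values were seen. They changed by 0.75 and 0.55 between the 2 needle groups and by -0.39 and -0.20 under empty needles. The 2 factors lower between the needle groups were Prdm1 (-0.19) and Nfic (-0.29), which rose under empty needles (0.29 and 0.20). Any link between these factors and the set was not tested. Of 18 genes of shaft assembly and cross-linking, 14 were higher under loaded than under empty needles and 3 lower (22.9% and 18.5% of all tested genes). Against untreated skin 9 were higher under loaded needles, 5 lower and 4 did not pass (19% of all tested genes called higher, 23.3% lower). Tchh, the gene of trichohyalin, changed by 0.80 between the 2 needle groups and Tchhl1 by 0.81.

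Markers of other cell types moved with the groups, and their part in these results was not tested. The summed level of the 5 suprabasal epidermis markers was 28353 to 29242 CPM untreated, 39821 to 40856 under empty needles and 20394 to 21976 under loaded needles. That of the 8 skeletal muscle markers was 7566 to 7796, 9398 to 10978 and 6853 to 7358 CPM in the same order, that of the 5 dividing cell markers 524 to 575, 270.4 to 278 and 459 to 478 CPM, and that of the 5 adipocyte markers 644 to 704, 377 to 418 and 694 to 719 CPM. Single markers could differ from their sum. Under empty needles against untreated skin, 4 suprabasal markers were higher and Ivl was lower (log2 fold change -0.36). Of the muscle markers 6 were higher, 1 was lower (Myh4, -0.93) and 1 did not pass. In that comparison 20.2% of all tested genes were called higher and 28.1% lower. Fabp4 gave most of the adipocyte sum (531 CPM over all libraries). Under loaded needles against untreated skin, 3 of the 5 adipocyte markers were higher, 0 lower and 2 did not pass (19% of all tested genes called higher). The inner root sheath is a part of the follicle that makes none of the hair shaft. All 7 of its markers were higher under loaded than under empty needles (22.9% of all tested genes). All 7 were lower under empty needles than in untreated skin (28.1% of all tested genes). Tchh, 1 of these 7, is also on the list of shaft assembly and cross-linking above, so the 2 lists are not separate. The fibroblast markers summed to 1376 to 1423, 1179 to 1267 and 921 to 948 CPM, the basal and outer root sheath markers to 14727 to 15502, 10929 to 11583 and 10652 to 11082 CPM, and the leukocyte markers to 46.7 to 48.6, 37.4 to 41.4 and 32.9 to 36.4 CPM. The 5 melanocyte markers moved the same ways in those 2 comparisons as the inner root sheath markers. No marker of these lists was at 0 in all libraries.

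Close copies limit what single genes show. In GENCODE M21 transcripts, 0% to 81.3% of the 50-base windows of a gene also occurred in a transcript of another gene, with a median of 14.7% and over 40% in 7 of 33 genes. Krtap4-13 was highest, sharing its windows with the predicted gene Gm11554, and had 41 to 85 raw counts in every library and no call. Krtap31-1 shared 39.1% of its windows with Krtap31-2. Of the Krtap5 genes, Krtap5-3 shared 7.30% of its windows with other genes, Krtap5-2 28.6% and Krtap5-1 60.6%. The 5 genes that shared none were Krtap4-16, Krtap9-5, Krtap16-1, Krtap17-1 and Krtap29-1. All 5 were higher under loaded than under empty needles (22.9% of all tested genes were called higher). Under empty needles against untreated skin, 4 of 5 were lower and 1 did not pass (28.1% of all tested genes were called lower). Loaded needles against untreated skin gave 3 higher, 0 lower and 2 that did not pass (19% of all called higher, 23.3% lower).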

How the data were processed

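Polyadenylated RNA was measured in 9 libraries. Extraction used a miRNeasy kit (Qiagen) and library preparation an xGen Broad-Range kit (IDT), per the labels' protocols. Per the submitters' processing notes, HISAT2, featureCounts and the build mm39 were used by the authors; the sources used here do not give versions, annotation or strand setting. Per the file headers, the deposited values are raw counts for each gene, beside its position and length.

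Low genes were removed with filterByExpr (minimum count 10, minimum total 15). TMM scaling and a robust quasi-likelihood fit over all 9 libraries, with 1 coefficient per group, were run in edgeR 4.0.16 (R 4.3.3), and p-values were adjusted by Benjamini-Hochberg over 26081 genes. Standard errors come from the F statistic. The procedure was also run on simulated counts drawn with the spread between these libraries. That run cannot tell whether the spread is technical. Members and lists were chosen with earlier results of these data known. Named genes are, in each subfamily, up to 2 with the highest level per kilobase and up to 2 with the smallest p over the 3 groups; others are said to be named after their values were seen, or complete a count. Promoters are from RefSeq (GRCm38.p6) and transcripts from GENCODE M21. Alternatives were other scalings and filters, the DESeq2 1.42.0 Wald test, a fit of only the groups compared, a block on replicate number, sums per hair keratin count and leaving out each library. Protein sequences were not used here.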

Additional observations from a re-analysis of the deposited data

How the results depend on the processing

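The counts of genes called higher and lower in the 3 comparisons stayed within 1.5 times their reported values under every alternative run. Leaving out 1 library gave 19 to 21 higher and 3 to 4 lower for loaded needles against untreated skin, 27 to 29 higher and 0 lower between the 2 needle groups, and 3 higher and 22 to 25 lower for empty needles against untreated skin. The labels do not say whether replicate numbers pair the libraries. Deviations from the group means correlated at -0.10 to 0.058 between same-numbered libraries and at -0.079 to 0.085 between the others. With 3 libraries a group these values cannot decide whether the numbers pair them. With the replicate block, 21 were higher and 4 lower, 28 and 0, and 3 and 24; it gained Krtap1-3 for loaded needles against untreated skin (edgeR adjusted p = 0.0182) and Krtap2-4 for empty needles (edgeR adjusted p = 0.0329). Library-size scaling moved the median of all genes from -0.014 to 0.12 for loaded needles against untreated skin, the share of higher among all calls from 44.9% to 68.1% (members from 83.3% to 88.5%), and the set's summed log2 ratio to 0.356. For empty needles against untreated skin it moved that share of all calls from 41.7% to 57.9%.

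Under library-size scaling Krtap28-13 (0.090) and Krtap29-1 (0.063; the Krtap29 sum 0.063) reversed for loaded needles against untreated skin, and Krtap2-4 (0.0042; the Krtap2 sum 0.00382), Krtap4-1 (0.014) and Krtap4-16 (0.0062) for empty needles. For loaded needles against untreated skin, leaving out 1 library gave -0.11 to 0.058 for Krtap28-13, reversed without untreated library 1, and -0.0069 to 0.12 for Krtap31-2, reversed without loaded-needle library 2. Of these, Krtap4-1 alone was called as reported.

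Per hair shaft keratin count, the set's summed log2 ratio reversed to -0.046 (loaded against untreated), -0.231 (loaded against empty) and 0.185 (empty against untreated). Subfamily sums that reversed were, for loaded against untreated, Krtap1 (-0.124), Krtap9 (-0.039), Krtap16 (-0.102), Krtap17 (-0.077) and Krtap28 (-0.173). For loaded against empty they were Krtap1 (-0.098), Krtap2 (-0.397), Krtap3 (-0.261), Krtap4 (-0.562), Krtap9 (-0.164), Krtap10 (-0.190), Krtap16 (-0.103), Krtap17 (-0.189), Krtap28 (-0.036) and Krtap29 (-0.072). For empty against untreated they were Krtap2 (0.457), Krtap3 (0.270), Krtap9 (0.126), Krtap10 (0.230), Krtap16 (0.0010) and Krtap17 (0.112). Depth limits Krtap4-13 (41 to 85 counts a library) and Krtap5-3 under empty needles (16 to 39).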

Other observations

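Between the first and the last of the set's genes on chromosome 11 lie 35 other genes of the table, most of them predicted genes without a name. Of these, 27 were tested. Under loaded against empty needles 17 rose, 0 fell and 10 did not pass, at a median log2 fold change of 0.46. Of all tested genes, 22.9% were called higher and 18.5% lower there. Under empty needles against untreated skin 10 fell, 3 rose and 14 did not pass, at a median of -0.12. The shares over all tested genes were 28.1% lower and 20.2% higher. The most abundant were Gm11562 (99.2 CPM over all libraries) and Gm11565 (93.8 CPM). Gm11562 changed by 0.46 between the 2 needle groups and by -0.06 under empty needles. Gm11565, which lies between Krtap31-1 and Krtap31-2, changed by 1.41 and -1.49. Krtap31-2 changed by 1.497 and -1.45 in the same comparisons, and Krtap31-1 by 1.30 and -0.86. These genes were not chosen before their values were seen.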
